A study of Oncorhynchus kisutch with 226 samples.

Results

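The fish described here were juvenile coho salmon (Oncorhynchus kisutch) caught in the Strait of Georgia in the summer of 2009 and compared by body condition. They were chosen by their labels: caught in ocean summer of 2009, in the areas labelled NM_SoG or south_SoG, with a recorded body mass above 0. The choice gave 48 fish of 226 in the series. A further 4 summer fish of 2009 from the same areas had a mass entered as 0 and were not analysed here. Each liver sample was on 1 microarray, and the samples are taken as separate fish. The condition factor was calculated as 100 times the mass in grams over the cube of the fork length in centimetres, where fork length runs from the snout to the fork of the tail. The 16 fish of highest condition factor formed the high-condition group, the 16 of lowest condition factor the low-condition group, and the 16 between them the middle-condition group. A pair of samples in the high-condition group shares a fork length of 18 cm, a mass of 73.9 g, and the sex, origin, area and stock labels. They have separate titles and lie on separate slides. Whether they came from the same fish was not tested.

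Condition factor is a measure of how heavy a fish is for its length, and it is widely used in fisheries work as a rough guide to energy stores and recent feeding. The liver is a main site of glycogen storage, fat synthesis and the making of growth factors in fish, and in fasting animals it releases glucose and other fuels. Whether liver transcripts track body shape within 1 season and 1 sea area is the question that this comparison puts to the data. Shape and size are separate traits, so a slope on condition factor was fitted with fork length in the same model.

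All 48 fish were coho salmon at sea in the same season and year, none had a treatment recorded in the labels, and the labels state no age. They differed in catch area, in origin (26 wild and 22 hatchery fish) and in the stock to which the labels assign them (ECVI, Fraser or S_Main). Both outer groups held all 3 stocks: 4 ECVI, 8 Fraser and 4 S_Main fish in the high-condition group, against 4, 7 and 5 in the low-condition group. Hatchery fish numbered 6 in the high-condition group and 7 in the low-condition group, and females numbered 9 and 7. The comparison set for season was 48 fish caught in the Strait in the fall of 2009, also with a recorded mass. They were 26 wild and 22 hatchery fish of the same 3 stocks. Their fork length was 24.3 ± 2.43 cm and their condition factor 1.23 ± 0.0631 (SD, n = 48).

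Every measured value is the log2 ratio of a fish's liver RNA to a pool of all liver samples, which was hybridised to each array as a common reference. A value of 1 means a doubling relative to the pool. The base of the logarithm and the direction of the ratio were not stated with the values. The mean of a probe fell as its variance rose (slope -0.364, Spearman rho -0.473 across 16802 probes), as it does for a sample over a pool on a base of 2, and 47 of these 48 arrays showed a negative relation of value to probe variance. Fish over reference is therefore the likely direction and is used below. With the opposite numerator each sign would turn and each count would stay. Of 1128 pairs of these arrays, 2 correlated below -0.3. Between 12760 and 29548 probes were measured per array, and 49.6% of the cells of these arrays were empty. The number of arrays limits the precision. The files do not pair probes with genes, so a probe is given by the column and row of its spot, for at most 2 probes per direction and comparison, and no pathway could be described.

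The condition groups differed in shape and not detectably in size. Condition factor was 1.29 ± 0.0398 in the high-condition group, 1.20 ± 0.0205 in the middle-condition group and 1.11 ± 0.067 in the low-condition group (SD, n = 16 each). It ran between 1.23 and 1.37 in the high-condition group, against 0.98 to 1.17 in the low-condition group. The limits between groups fell among close neighbours. The last fish inside the high-condition group had 1.2322 and the first outside it 1.2299, and the last inside the low-condition group had 1.1709 and the first outside it 1.1711. Within 0.005 of each limit lay 5 fish. Fork length was 18.1 ± 1.38 cm in the high-condition group and 18.6 ± 2.91 cm in the low-condition group (permutation test, two-sided p = 0.519, adjusted p = 1 over 6 labels compared). Mass was 77.9 ± 19.8 g and 77.8 ± 38.4 g in the high and the low-condition group (permutation p = 0.994). The low-condition group had the wider spread of lengths: it held fish of 13.2 to 24.1 cm, where the high-condition group held fish of 15.7 to 21.9 cm. Over the 48 fish, condition factor and fork length had a Pearson r of 0.09 (permutation p = 0.537) and a Spearman rho of -0.09 (p = 0.536). Without the 2 fish farthest from the median condition factor, r was -0.06.

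**Figure D1:**
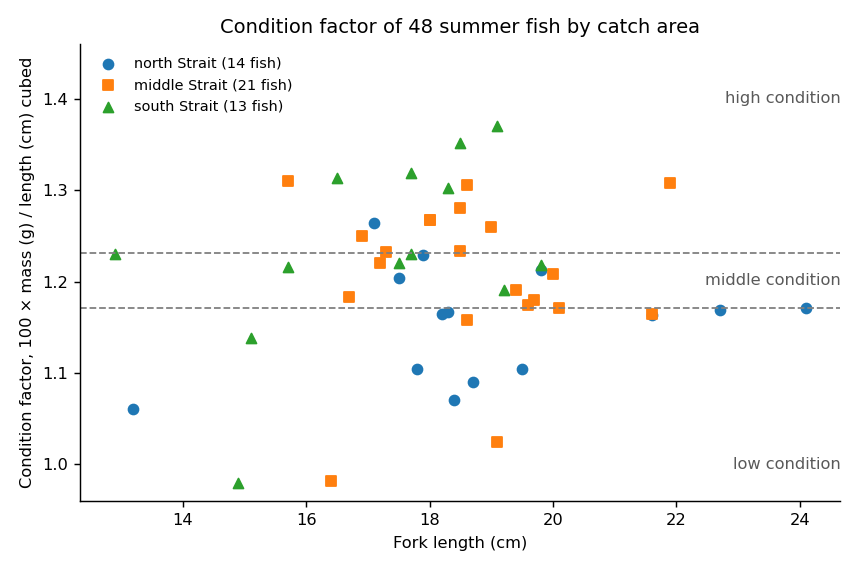
Condition factor against fork length in cm, 1 point per fish, with colour and shape for the 3 catch areas; dashed lines mark the limits between groups, at the midpoint of the last fish inside and the first outside. The north Strait has 1 of its 14 fish above the upper line and 10 below the lower one, and the low-condition group spans lengths of 13.2 to 24.1 cm.

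Catch area was the label that moved with condition. The high-condition group held 1 fish from the north Strait, 10 from the middle and 5 from the south, against 10, 4 and 2 in the low-condition group (Fisher exact test, p = 0.00407, adjusted p = 0.0244 over 6 labels). With the coarser area label of 2 classes, which joins north and middle, the split was 11 and 5 in the high-condition group against 14 and 2 in the low-condition group (adjusted p = 1). Mean condition factor was 1.16 ± 0.0614 in 14 north fish, 1.21 ± 0.0841 in 21 middle fish and 1.24 ± 0.103 in 13 south fish. Stock, origin and sex had Fisher exact p values of 1, 1 and 0.724. Liver values of these fish also differed by area: with condition factor and fork length in the model, limma called 373 of 16802 probes for the area term at an adjusted p below 0.05. That model had no origin or stock term. Most south fish were wild and most were of the ECVI stock. Most middle fish were hatchery fish and few were ECVI. Area, origin and stock therefore cannot be told apart in this count. The slope, the high minus low difference and the seasonal difference were therefore also fitted with area as a term, and the array-wide values were also read within areas. The comparison of empty cells had no area term.

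Some fish scored low on the leading axis of variation between fish, without a clear gap to the rest. This leading axis, from a principal component analysis of 10636 probes measured on all 48 arrays, held 32.4% of the variance. On it 7 fish scored below -50, a limit set after the scores were seen, with scores of -57.1 and lower, where the other 41 reached down to -49.7 and up to 40.7. All 7 were wild fish of the south Strait and of the ECVI or S_Main stock. They were 3 fish of the high-condition group, 3 of the middle and 1 of the low-condition group, on 5 slides that held 3 other fish of this set. The next fish, at -49.7, was a hatchery fish of the middle Strait, and the one after, at -39.6, a wild north fish. Both were S_Main fish. Every Fraser fish had a positive score, those of the south at 9.6, 19.4 and 19.7. The part of area, origin and stock in these scores was not tested. The median number of measured probes was 18382 in the 7 fish below -50, against 22513 in the other fish. The number of probes called, given below, was 0 with and without these 7 fish for both the slope and the condition groups. Arrays were also more alike within slides, of 20 in all: 2 arrays of one slide had a median correlation of 0.538, against 0.324 for arrays of separate slides. On separate slides the median was 0.371 for fish of the same area and 0.297 for fish of different areas. Several slides held fish of this set from 1 area and 1 stock only. Slide therefore cannot be told apart from area, stock and origin in these medians. Only 4 slides held both high and low fish, 6 of each, so most of the contrast ran between slides, and the slide entered each fit as a random block.

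**Figure D2:**
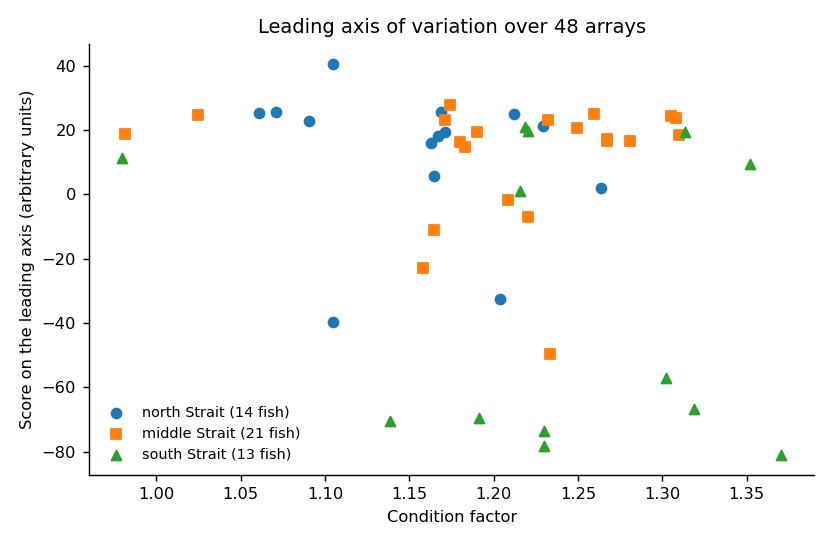
Score on the leading axis of variation (arbitrary units) against condition factor, 1 point per fish, coloured by catch area. The 7 fish between -57.1 and -81.1 are all from the south Strait. Their condition factors run from 1.14 to 1.37, with 1 of them in the low-condition group.

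No array-wide value followed condition factor past adjustment. Of 7 values compared with it over the 48 fish (the number of measured probes, the array median and the first 5 axes), none passed adjustment. The number of measured probes was 21679 ± 2087 in the high-condition group, 21539 ± 3898 in the middle-condition group and 22673 ± 2100 in the low-condition group, and its Pearson r with condition factor was -0.23 (permutation p = 0.118, adjusted p = 0.413) with a rho of -0.22 (p = 0.142). Without the 2 fish farthest from the median, r was -0.16. Within areas it was -0.05 in the north, -0.05 in the middle and -0.34 in the south. The leading axis had an r of -0.23 over all fish (permutation p = 0.109, adjusted p = 0.413). The largest r of any of these values within an area was 0.60, for the third axis in 14 north fish (rho 0.43). It was 0.48 without the 2 fish farthest from the median, and values within areas were not tested. On different slides, 2 fish of the high-condition group had a median correlation of 0.378, 2 fish of the low-condition group one of 0.275, and a high with a low fish one of 0.317. The median of a high with a low fish thus lay between those within the 2 groups. Pairs share fish, and the difference of these medians was not tested.

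Across the liver, no probe passed adjustment for condition factor. The slope of the log2 ratio per 0.1 of condition factor was tested for 16802 probes with fork length in the model, and limma called 0 (0% of the probes), with a smallest adjusted p of 0.334. An unadjusted p below 0.05 was reached by 1382 probes, 8.23% of those tested, with a positive slope in 681 and a negative one in 701. Slopes were small: their median size was 0.0625 on the log2 scale per 0.1 of condition factor, and the 95% interval of the slope lay within 1 either way for 16790 probes (99.9%). The median interval reached 0.151 to each side. A doubling per 0.1 of condition factor was thus outside the interval of nearly every probe. These intervals hold for 1 probe at a time and are not adjusted. Much larger slopes than 0.1 also went uncalled after adjustment, such as 0.37 in C214R101 and 0.90 in C002R063 (limma adjusted p = 0.334 and 0.404).

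The number of small unadjusted p values exceeded the 5 in 100 that unrelated probes would give on average, and it fell under several settings. With catch area as a covariate 825 probes had an unadjusted p below 0.05, with the leading axis score 847, with slide as a fixed block 929, with origin 959 and with the number of measured probes 1065. The number did not fall with stock (1437) or sex (1405) as a covariate, or without a slide block (1499). Without the 7 fish below -50 on the leading axis it was 919. It was 1744 among the 26 wild fish alone and 691 among the 22 hatchery fish alone. Within areas it was 1147 in the north, 667 in the middle and 453 in the south. Each of these fits called 0 probes past adjustment. Probes are correlated with each other, so these counts describe the fits and are no test.

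The 2 probes of smallest p in each direction for the slope, none of them past the threshold, show the size of the slopes that came nearest to it. C214R101 ran from -1.58 to 1.57 with a median of -0.18 in the high-condition group, against -1.49 to 0.01 with a median of -0.76 in the low-condition group (log2 ratios). The groups overlapped: 5 high fish lay above every low fish, and 1 lay below every one. Its slope was 0.37 (SE 0.09, limma adjusted p = 0.334).

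C254R076 had its lowest, median and highest ratio at -0.32, 0.27 and 1.20 in the high-condition group, and at -1.63, -0.43 and 0.91 in the low-condition group. All 16 high fish lay above the median of the low fish, and 11 low fish lay below every high fish. The slope was 0.34 (SE 0.08, limma adjusted p = 0.334).

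C101R102 and C037R015 leaned the other way. The ratio of C101R102 had a median of -0.30 in the high-condition group (-1.27 to 0.73) and 0.33 in the low-condition group (-0.47 to 0.86). That of C037R015 had a median of -0.20 (-1.41 to 0.69) and 0.52 (-1.01 to 1.62) in the same order. For C037R015, 15 of 16 high fish lay below the median of the low fish. Their slopes were -0.32 and -0.30 (SE 0.08 each, limma adjusted p = 0.334 for both).

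**Figure D3:**
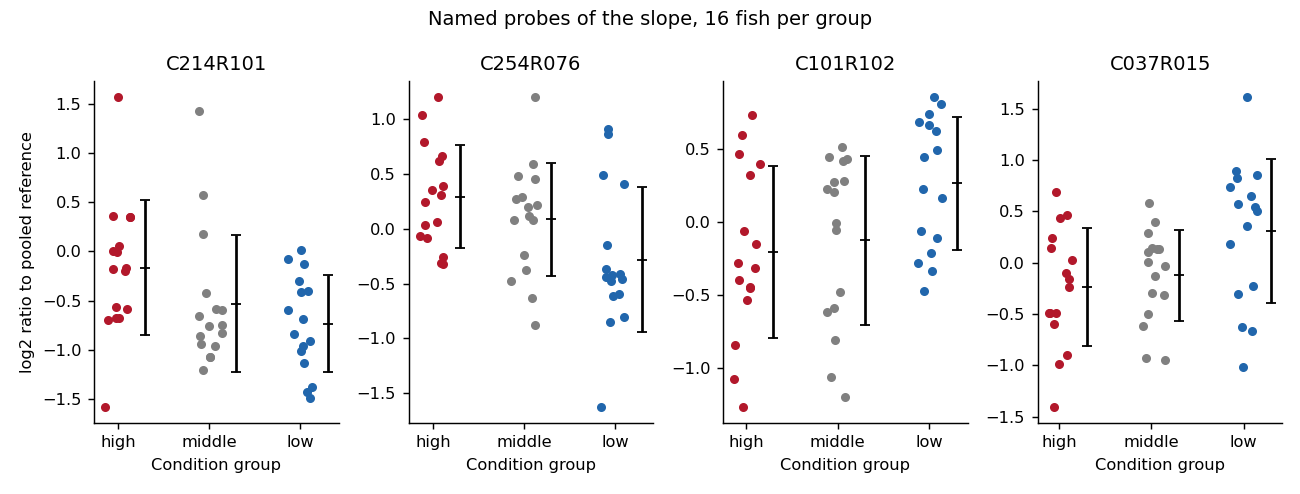
Log2 ratio to the pooled reference in each fish of the high, middle and low-condition group for the 4 named probes of the slope; dots are fish, spread sideways at random, and bars give the mean and SD of 16 fish. In each panel the outer groups overlap, and the middle-condition group has its mean between them.

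The outer groups, compared without regard to the values inside them, gave a weaker picture. Limma called 0 of 16802 probes for the high minus the low-condition group (0%), with a smallest adjusted p of 1, and 702 probes (4.18%) had an unadjusted p below 0.05, 335 higher and 367 lower in the high-condition group. That share is near what unrelated probes would give on average. Unlike that of the slope, this number rose with area (769), the leading axis score (861) or slide as a fixed block (768). It was 644 with origin as a covariate and 555 without a slide block. The median 95% interval reached 0.331 to each side, and it lay within 1 either way for 16196 probes (96.4%). Differences over 1 in size were estimated for 22 probes.

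**Figure D4:**
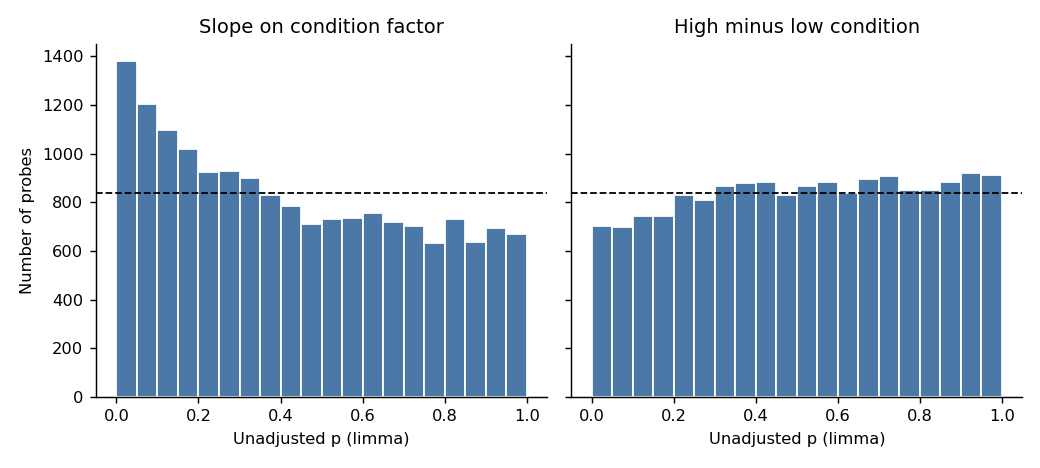
Numbers of probes by unadjusted limma p in 20 bins of equal width, for the slope on condition factor (left) and the high minus low-condition group (right); the dashed line is the level of equal bins. The first bin of the slope holds 1382 probes and lies above the line, and that of the condition groups holds 702 and lies below it.

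The largest of the named differences was in C002R063. Its ratio ran from -5.10 to 1.14 with a median of -2.00 in the high-condition group, from -5.44 to 0.51 with a median of -3.36 in the middle-condition group, and from -6.96 to -1.09 with a median of -4.16 in the low-condition group. In the high-condition group 15 of 16 fish lay above the median of the low-condition group, 6 lay above every low fish, and 4 low fish lay below every high fish. The high minus low difference was 2.12 (SE 0.54, 95% interval 1.04 to 3.20). It did not pass adjustment (limma p = 0.000254, adjusted p = 1).

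The other 3 named probes of this contrast differed less. C237R124 had a mean ratio of 0.45 ± 0.60 in the high-condition group and -0.39 ± 0.79 in the low-condition group (SD, n = 16 each). C006R056 averaged -0.04 ± 0.57 and 0.78 ± 0.41, with every low fish at 0.37 or above and 13 of 16 high fish below every one of them. C049R143 averaged -0.94 ± 0.72 in the high-condition group and -0.07 ± 0.93 in the low-condition group, and 7 low fish lay above every high fish. The fitted differences were 0.86, -0.78 and -1.01, each with a limma adjusted p of 1.

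The estimated difference in C002R063 was larger in wild than in hatchery fish, in a split that was made after its values were seen. The 10 wild fish of the high-condition group averaged -1.09 ± 1.22 and the 9 wild fish of the low-condition group -4.62 ± 1.86. The fitted difference was 3.32 (95% interval 2 to 4.64) and did not pass adjustment (limma adjusted p = 0.114). The 6 hatchery fish of the high-condition group averaged -3.28 ± 1.33 and the 7 of the low-condition group -3.51 ± 1.17, a fitted difference of 0.37 (-1.21 to 1.94). The test of the difference between origins gave 2.95 (95% interval 0.92 to 4.97, limma p = 0.0052) and did not pass adjustment over all probes (adjusted p = 0.784). These fits by origin had no area term. Most wild fish of low condition were from the north Strait, and most of high condition were not. The probe averaged -3.89 in north, -2.88 in middle and -2.40 in south fish. Condition and area therefore cannot be told apart in the wild difference. For no probe did the high minus low difference, or the slope, differ between wild and hatchery fish past adjustment, with 991 and 1297 probes at an unadjusted limma p below 0.05. Over both origins, the high minus low difference of C002R063 was 1.69 without the 7 fish below -50 on the leading axis, all wild. With all fish it was 1.67 with slide as a fixed block and 2.06 with area as a covariate.

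The fall fish of the Strait, separate animals caught later in the same year, allowed the 8 probes named above to be read again. For C002R063 the slope per 0.1 of condition factor was 0.90 (SE 0.25) in summer fish and 1.51 (SE 0.37) in fall fish fitted alone, of which 47 of 48 had a value. The fall slope had an unadjusted limma p of 0.000186 and an adjusted p of 0.248 over all probes. In a fit of both seasons together it was 1.47 (SE 0.38, limma adjusted p = 0.0688). Its correlation with condition factor in fall fish was r = 0.48 (permutation p = 0.00044) and rho = 0.49 (p = 4e-04) over 47 fish, and r was 0.53 without the 2 fish farthest from the median. These permutations shuffled all fish freely, so the p values do not allow for shared slides, catch area or fork length. C002R063 was the one of 8 followed furthest, and this reading was added after its summer values were seen.

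Within areas the relation of C002R063 to condition was uneven. In summer r was 0.41 in 14 north fish, 0.14 in 21 middle fish and 0.72 in 13 south fish. In fall it was 0.74 in 7 north fish, 0.32 in 18 middle fish and 0.59 in 22 south fish. Without the 2 fish farthest from the median condition factor, the north values were 0.11 in summer and 0.10 in fall, so r there depended on those fish. Leaving them out also narrows the range of condition factor, and the fall set there was only 7 fish. The rho of all north fish was 0.38 in summer and 0.64 in fall. By origin, in fits without an area term, the summer slope was 1.56 (95% interval 0.93 to 2.19, limma adjusted p = 0.0692) in wild fish. It was 0.05 (-0.64 to 0.74) in hatchery fish. The fall slope was 1.04 (-0.03 to 2.10, adjusted p = 0.717) in wild and 1.93 (0.80 to 3.06, adjusted p = 0.513) in hatchery fish. None of these slopes passed adjustment. The wild minus hatchery difference was 1.51 (0.59 to 2.42) in summer and -0.90 (-2.45 to 0.66) in fall, and neither passed adjustment (limma adjusted p = 0.314 and 0.675).

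**Figure D5:**
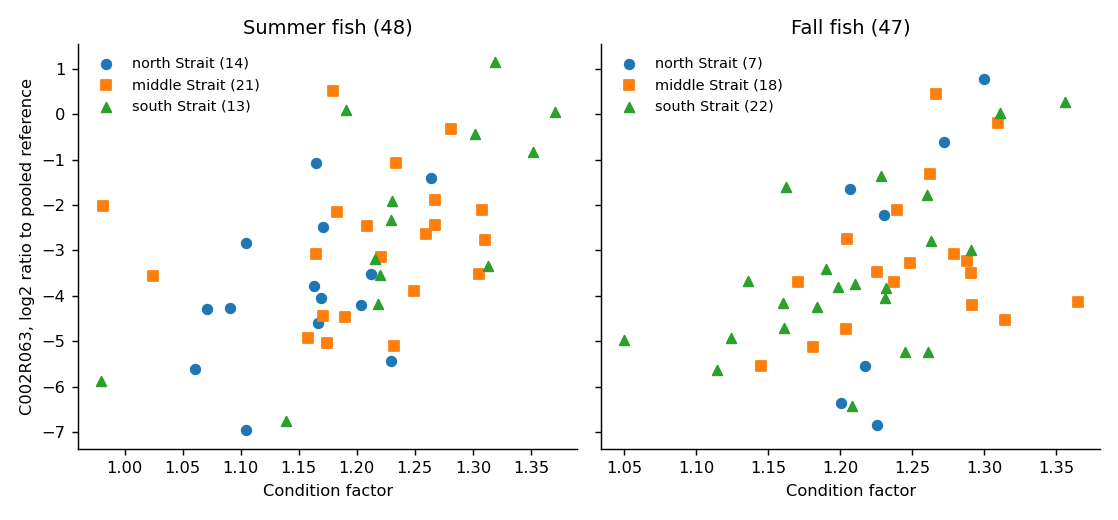
Log2 ratio of C002R063 to the pooled reference against condition factor in 48 summer fish (left) and 47 fall fish (right), 1 point per fish, coloured by catch area. Both panels rise from the lower left, with a wide scatter at any one condition factor.

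Of the other 7 probes, C237R124 had a fall r of 0.29 (permutation p = 0.0482, n = 48) with a rho of 0.28 (p = 0.0512), and r was 0.29 without the 2 fish farthest from the median. The remaining 6 had fall correlations between -0.23 and 0.22, with permutation p values of 0.111 to 0.662. All 8 correlations had the same sign in fall as in summer, but that of C214R101, first by p in summer, was 0.06 in fall and -0.01 without the 2 fish farthest from the median. Its fall slope was 0.04 (95% interval -0.29 to 0.37). Over all probes tested, 65.2% of slopes had the same sign in both seasons.

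The slope on condition did not differ between seasons past adjustment for any probe. For summer minus fall, limma called 0 of 16802 probes (0%), with a smallest adjusted p of 0.0835 and 673 probes (4.01%) at an unadjusted p below 0.05. Fall fish fitted alone also gave 0 called (0%), with 1247 (7.42%) at an unadjusted p below 0.05 and a smallest adjusted p of 0.0766. In the fit of both seasons, which pools the spread, 21 fall slopes and 0 summer slopes passed, so the fall count depended on the fit. The median 95% interval of a slope reached 0.151 to each side in summer, against 0.247 in fall.

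Of the probes named for the seasonal difference, C109R165 and C160R033 had slopes near 0 in summer and positive ones in fall. C109R165 had a slope of 0.11 (95% interval -0.21 to 0.42) in summer and 1.84 (1.12 to 2.56) in fall. Its ratio lay between -3.58 and 2.03 with a median of -2.83 in summer fish, and between -4.13 and 2.80 with a median of -0.99 in fall fish. C160R033 had slopes of -0.11 (-0.41 to 0.19) and 1.49 (0.77 to 2.21) in summer and fall. The summer minus fall differences were -1.76 (limma adjusted p = 0.0835) and -1.65 (adjusted p = 0.102). In the other direction, C180R120 sloped by 0.17 in summer and -0.66 in fall, and C086R087 by 0.39 and -0.24 (adjusted p = 0.32 for both differences).

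Over all probes the slopes of the 2 seasons leaned the same way. Across 16802 probes, which are not independent, summer and fall slopes had a Spearman rho of 0.439, and 10960 (65.2%) had the same sign. The rho was 0.316 with area as a covariate, 0.249 with the leading axis of each season as a covariate, and 0.351 with only the 37 fall fish on slides that held no fish of the summer set. The seasons share the pooled reference and, for 11 fall fish, slides. These values are descriptions, and the part that shared axes of variation play in them was not tested beyond the fits given.

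Fork length, in the same model, gave a picture much like that of condition. Limma called 0 of 16802 probes for its slope (0%), with a smallest adjusted p of 0.163 and 1458 probes (8.68%) at an unadjusted p below 0.05. The slopes of C177R077 and C051R108 were -0.17 and -0.16 on the log2 scale per cm (adjusted p = 0.163 for both), and those of C178R159 and C074R169 were 0.13 and 0.11 (adjusted p = 0.282 for both). Without the slide block C177R077 and C051R108 passed (adjusted p = 0.00939 for both). Neither trait thus had a called probe in the model with the slide block, in the same 48 livers.

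Empty cells were also compared, since a fish whose cell is empty adds nothing to the ratio test of that probe. Probes measured on fewer than 80% of all arrays also entered none of the main ratio tests. Of 8331 probes measured on 20% to 80% of these arrays, 0 differed between the high and the low-condition group past adjustment by Fisher's exact test (0%), and 143 (1.72%) had an unadjusted p below 0.05. Of those, 17 were measured in more high fish and 126 in more low fish, beside the lower mean number of measured probes in the high-condition group. The part of that number in the counts was not tested. C074R004 was measured in 8 of 16 high fish and 0 of 16 low fish, and C106R004 in 10 and 2. C232R047 was measured in 5 high and 15 low fish, and C074R043 in 0 and 9 (adjusted p = 1 for each, exact test). A count of 0 of 16 fish allows a share of up to 18.8%, for counting error only. The rule by which the authors left cells empty is not stated with the files.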

How the data were processed

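The authors deposited log ratios, 1 per probe and array, taken here as log2 of fish over liver pool, since base and direction are not stated; per the labels' protocols every fish carried the same Alexa dye and the pool another, with no dye swap named. Scanning, normalization and the rule for empty cells are not stated in the labels or the file header. Groups, lists and members were chosen with earlier results of these data known. Probes measured on at least 80% of all 226 arrays were kept (16802). Fits used limma 3.58.1 in R 4.3.3 with slide as a random block (duplicateCorrelation on 3000 probes, correlations 0.31 for the slope and 0.322 for the condition groups) and Benjamini-Hochberg adjustment over all probes, called below 0.05. Most fits that leave out fish reused the correlation of the full fit. The fit of the outer groups alone estimated its own. Correlations used 1e+05 permutations that shuffled fish freely, without regard to slide, area or fork length. The fit code was run on simulated ratios with known effects. Probes were simulated independently of each other there, so the run does not cover correlated probes such as those of these arrays. Named probes are the 2 per direction of largest size among called probes, made up by those of smallest p where fewer were called; here none passed, so all were chosen by p. The follow-up of C002R063 in fall, within areas and by origin was added after its values were seen. No column was left without a sample.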

Additional observations from a re-analysis of the deposited data

How the results depend on the processing

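Of 25 alternatives for the slope 24 called 0 probes, and of 23 for the condition groups 22 did. The slope called 2 with the first 5 axis scores as covariates, a setting added after the data were seen: C052R062 (-0.34) and C244R054 (0.40), both at a limma adjusted p of 0.0223. The condition groups called 1 without the north Strait fish, C194R159, at 1.19 (limma adjusted p = 0.0276, against 0.69 with all fish). These 3 were named after their values were seen, and the cause was not tested. Fork length called 2 without the slide block. The composition test passed 1 label with the fine areas and 0 with the coarse ones. Leaving out each fish in turn called 0 in all 48 fits of the slope and all 32 of the condition groups, with 1058 to 1823 and 572 to 892 probes at an unadjusted p below 0.05. Other unadjusted counts that moved over 1.5 times were those of the seasonal difference, fork length and detection. The seasonal difference had 1051 with area within season (673 without). Fork length had 934 with slide as a fixed block and 802 with area (1458 in the main fit). Detection had 220 of 14045 probes on 10% to 90% of the 48 arrays, against 143 of 8331, so more probes were tested there. Counts of the slope stand in the report. The r of the fourth axis with condition factor, 0.02, was -0.07 with axes taken after quantile normalization, neither past adjustment. Of 548 values of named probes under alternatives 0 reversed. Most of these values came from fits without 1 fish, and the probes were chosen by p in the same fish. A sign could therefore hardly turn, and the 0 is no test of the probes. Among slopes, C214R101 lay between 0.61 (south Strait) and 0.23 (hatchery), and C101R102 between -0.49 (north) and -0.20 (south). Among group differences, C002R063 lay between 3.36 (wild fish) and 0.18 (hatchery fish), with a limma adjusted p of 0.138 to 1; C049R143 between -1.49 (wild) and -0.17 (hatchery); C237R124 lay between 1.15 (wild) and 0.14 (middle Strait). The fit on a second deposited table was not run. No paired analysis was possible because each sample is taken as 1 fish and replicate numbers only name fish.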

Other observations

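C260R076, chosen after the values were seen, was the probe whose ratio was most like that of C002R063 across the summer fish (r = 0.906, n = 48) and also across the fall fish (r = 0.901). Its ratio averaged -1.92 ± 1.51 in the high-condition group and -3.50 ± 1.53 in the low-condition group (SD, n = 16 each). The fitted high minus low difference was 1.48 and did not pass adjustment. Its slope per 0.1 of condition factor was 0.70 in summer (limma adjusted p = 0.534) and 1.10 in fall (SE 0.39, limma adjusted p = 0.452). The probe was picked for its likeness to C002R063, so these values are no separate evidence. The files do not give the sequences of the 2 spots, so whether they report the same transcript was not tested. Over the series, with the ratio to the same pool, C002R063 averaged 2.26 ± 1.23 in 8 parr, -1.16 ± 3.24 in 53 smolts, -1.32 ± 2.06 in 14 spring fish, -3.06 ± 1.70 in 67 summer fish, -3.12 ± 1.94 in 70 fall fish and -2.60 ± 1.41 in 11 winter fish (SD). The parr were hatchery fish of the Chilliwack River from the earlier catch year, on slides that held only parr, so stage, river, year and slide cannot be told apart there. The smolts, summer fish and fall fish of this reading mixed origins, places of catch and years. The spring fish were all wild fish of the south Strait. Differences between these means therefore cannot be told apart from those labels.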
